A study of Mus musculus with 4 samples.

Results

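Genes of protein entry, folding and quality control in the endoplasmic reticulum (ER), and of the unfolded protein response, were followed in mouse regulatory T cells (Treg) after an agonistic antibody to death receptor 3 (anti-DR3). Treg are Foxp3-expressing CD4 T cells that restrain immune responses, and DR3 is a costimulatory receptor of the tumour necrosis factor receptor superfamily. The genes were taken from a list of 40, chosen by function but with earlier results of these data known. Each gene was read at its brightest probe set among those annotated with a single gene symbol. Of the 40 genes 39 had such a probe set, among 22180 genes on the array. Of these, 38 were bright enough to be tested, among 12114 genes tested. Pdia4, a disulfide isomerase, was not analysed here, and Sec61b, a subunit of the translocation channel, was too dim to be tested.

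The data were 2 arrays of Treg from mice given anti-DR3 and 2 arrays of Treg from mice given an isotype control antibody. All mice were of the strain labelled Foxp3Luci-DTR-4(B6 Albino). Antibody was given intraperitoneally, and 4 days later cells positive for CD4 and a Foxp3 GFP reporter were sorted. The labels give no age, sex, dose or tissue of origin. They also do not say whether the replicates of a group were separate mice, and the spread that p-values rest on may therefore be technical.

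Proteins bound for the cell surface or for secretion enter the ER through the Sec61 channel, lose their signal peptide, receive sugar chains and fold with the help of chaperones and disulfide isomerases. Chains that fail to fold are pulled back to the cytosol and degraded. Under a load of unfolded chains, the sensors Ire1 (gene Ern1), Atf6 and Perk (gene Eif2ak3) raise the transcription of chaperone and degradation genes, and T cells that become effectors make more secreted and surface protein.

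After anti-DR3, all 11 tested genes of protein entry into the ER had a higher mean than after control antibody and 2 of them passed the test, while the 9 lumenal chaperones lay on both sides of 0 and 0 of them passed. Sec11c, a catalytic subunit of signal peptidase, rose 1.73-fold and Atf6, a stress sensor, rose 1.71-fold. Ssr2, a subunit of the translocon-associated complex, rose 1.44-fold. These 3 of 38 genes passed an adjusted p of 0.05 in limma as higher, and 0 passed as lower. Over all genes tested, 4.49% passed as higher and 1.47% as lower, so the share among these genes, 7.89%, rests on 3 genes and lies near the background. Of the 3 calls 2 remained without control antibody replicate 2, and 0 without any other single array. Leaving out 1 array moved the log2 difference by over 1.5 times for 20 of the 38 genes, which do not include these 3. The groups did not overlap, with anti-DR3 higher, for 27 of the 38 genes, or 71.1%, against 31.6% of all genes tested. They did not overlap with anti-DR3 lower for 4 of the 38, or 10.5%, against 24.6% of all genes tested. The median log2 difference (anti-DR3 minus control antibody) was 0.13 over the 38 genes and 0.010 over all genes tested.

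**Figure D1:**
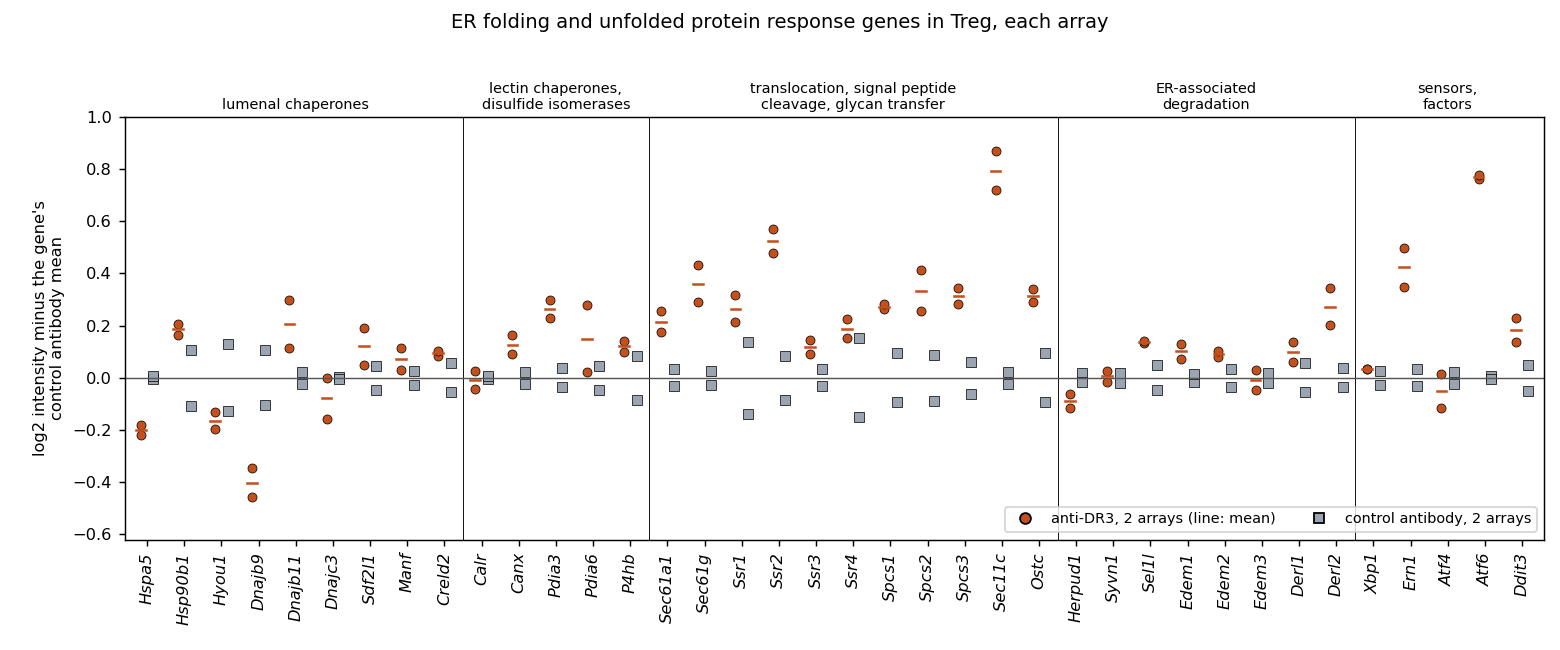
Log2 intensity of each of the 38 genes on each array, with the gene's mean over the control antibody arrays subtracted; circles are the 2 anti-DR3 arrays with their mean as a line, squares the 2 control antibody arrays, and genes are grouped by role. All 11 genes of the translocation block have a mean above the control antibody mean, while the lumenal chaperones lie on both sides of it.

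Most of these genes are bright, and bright genes tended to be higher after anti-DR3, which bears on these shares. Of the 38 genes 34 lay above the 75th percentile of all probe sets. Among all 6249 genes above it, the groups did not overlap with anti-DR3 higher for 40.7%, 5.66% passed as higher, and the median log2 difference was 0.046. The part of brightness in the shares of the 38 genes was not tested.

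The promoters of these genes were searched for exact matches to the binding element of the unfolded protein response. The list was chosen by function to hold genes of this response, so a high share of the element among them is not independent support. The ER stress element (ERSE) is bound by Atf6 together with the factor NF-Y, and by Xbp1. It was searched on both strands, as CCAAT and CCACG with 9 free bases between them, in the RefSeq promoters of GRCm38.p6, which run 250 bases before to 50 bases after the gene start. Of the 40 genes 31 had a promoter in the table. Of these 31, 8 held the element, or 25.8%, against 39 of all 32851 promoters, or 0.119%. The first share counts genes and the second promoters, and the 39 promoters belong to 37 genes. A second form, ERSE-II, ATTGG and CCACG with 1 free base between them, was found in 2 of the 31 (6.45%) and in 0.0365% of all promoters. The elements are shown because they let the stress-element genes be followed as a group; each is written 5′ to 3′ on its own strand, with the matched letters in capitals and the free positions in lower case.
Hspa5 ERSE, chr2:34772025-34772043: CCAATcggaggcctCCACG
Hsp90b1 ERSE far from the start, chr10:86705638-86705656: CCAATcgcaaggagCCACG
Hsp90b1 ERSE near the start, chr10:86705533-86705551: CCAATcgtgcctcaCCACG
Calr ERSE, chr8:84847075-84847093: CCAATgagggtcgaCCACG
Canx ERSE, chr11:50325800-50325818: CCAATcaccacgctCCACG
Pdia6 ERSE, chr12:17266491-17266509: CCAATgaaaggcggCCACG
Dnajc3 ERSE, chr14:118937827-118937845: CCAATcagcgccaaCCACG
Creld2 ERSE, chr15:88819520-88819538: CCAATtgaggctcgCCACG
Syvn1 ERSE, chr19:6046532-6046550: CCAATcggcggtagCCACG
Herpud1 ERSE-II, chr8:94386377-94386387: ATTGGgCCACG
Dnajb11 ERSE-II, chr16:22857852-22857862: ATTGGcCCACG

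The elements of Calr and Creld2 and the near one of Hsp90b1 lay on the strand opposite to the gene. The near edge of the Hspa5 element was 47 bases before the start and that of Syvn1 26 bases, while the Calr element ended 144 bases before it. A pair of promoters is printed whole to show the element in context: that of Hspa5, the gene of the chaperone BiP (chr2:34771840-34772139, plus strand), and that of Hsp90b1, the gene of Grp94 (chr10:86705395-86705694, minus strand). Both are written in the direction of the gene, with the matched letters of ERSE in capitals, so an element on the opposite strand reads as its reverse complement.
Hspa5: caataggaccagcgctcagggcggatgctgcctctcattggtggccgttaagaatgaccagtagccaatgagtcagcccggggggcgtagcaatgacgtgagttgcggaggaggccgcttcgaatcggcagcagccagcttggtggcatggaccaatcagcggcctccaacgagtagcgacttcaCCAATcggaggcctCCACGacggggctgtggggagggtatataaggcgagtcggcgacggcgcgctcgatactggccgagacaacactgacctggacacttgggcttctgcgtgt
Hsp90b1: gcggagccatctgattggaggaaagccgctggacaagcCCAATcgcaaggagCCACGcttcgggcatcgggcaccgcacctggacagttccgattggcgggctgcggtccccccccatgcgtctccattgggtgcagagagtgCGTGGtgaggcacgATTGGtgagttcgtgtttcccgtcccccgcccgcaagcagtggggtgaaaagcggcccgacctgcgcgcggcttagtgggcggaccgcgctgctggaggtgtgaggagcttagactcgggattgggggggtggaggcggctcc

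In limma 0 of the 8 genes with ERSE passed, where 4.49% of all genes tested passed as higher and 1.47% as lower. At those shares, 0 calls among 8 genes carries little information. Of the 8, only Hspa5, which was lower after anti-DR3, had an unadjusted p under 0.05, against 26.1% of all genes tested. The differences of these 8 genes ran from -0.20 to 0.19 on the log2 scale, with a median of 0.050, and 5 were positive and 3 negative. The 19 genes tested whose promoter held no exact match to either ERSE form also had 0 calls. Of these 19, 7 had an unadjusted p under 0.05, and their median was 0.14. The 9 genes with no promoter in the table held the 3 calls and had a median of 0.32. Over the whole array, 16 genes tested had ERSE in a promoter, these 8 among them, and of the 8 others 0 passed as well. A match is a string of letters and does not show that a factor binds. A promoter without a match may still hold a variant of the element, because variants were not searched for.

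**Figure D2:**
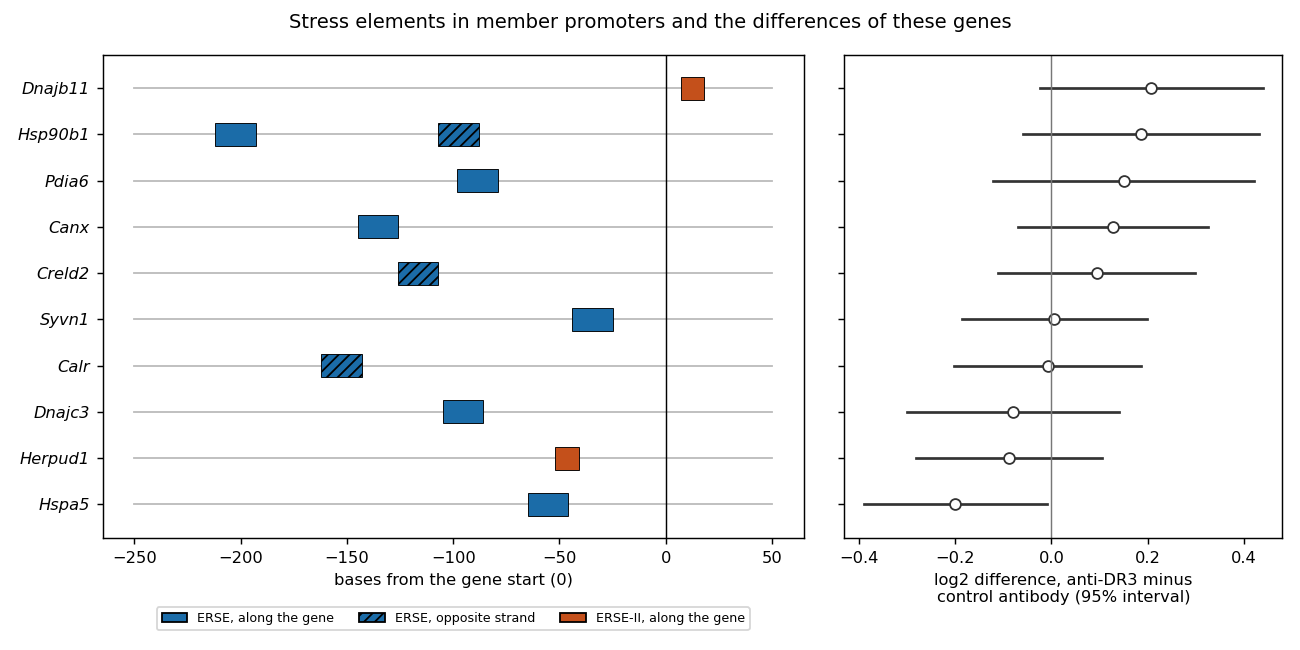
Left, position of each ERSE (19 bases) and ERSE-II (11 bases) in the promoters of 10 genes, in bases from the gene start; hatched boxes lie on the strand opposite to the gene. Right, log2 difference of the same genes, anti-DR3 minus control antibody, with its 95% interval; the intervals of all of them except Hspa5 include 0.

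The entry machinery had the highest median of the 5 roles. Its 12 listed genes cover the channel (Sec61a1, Sec61b, Sec61g), the translocon-associated complex (Ssr1 to Ssr4), signal peptidase (Spcs1, Spcs2, Spcs3, Sec11c) and Ostc, a subunit of the enzyme that transfers sugar chains. Of the 11 tested, 2 passed as higher, 0 as lower and 9 did not pass. All 11 differences were positive, from 0.12 to 0.79 with a median of 0.32 on the log2 scale, and 8 were under an unadjusted p of 0.05, against 26.1% of all genes tested. The groups did not overlap, with anti-DR3 higher, for 10 of the 11, against 31.6% of all genes tested and 40.7% of genes above the 75th percentile.

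Sec11c had log2 intensities of 9.22 and 9.37 after anti-DR3, against 8.48 and 8.53 after control antibody. The lower anti-DR3 array lay 0.70 above the higher control antibody array, so the groups were far apart relative to the gap between replicates. The log2 difference was 0.79 ± 0.089 (SE, n = 2 arrays per group; adjusted p = 0.0123, limma). Sec11a, which encodes the other catalytic subunit of signal peptidase and is given here for that role, had 7.91 and 7.95 after anti-DR3, against 7.98 and 7.82 after control antibody. Its groups overlapped, and its log2 difference was 0.024 with a 95% interval of -0.20 to 0.24. The 2 genes were not tested against each other.

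The accessory subunits of signal peptidase lay in the same direction without passing. Spcs1 had 7.52 and 7.54 after anti-DR3, against 7.36 and 7.17 after control antibody (log2 difference 0.27, adjusted p = 0.141). Spcs2 had 8.70 and 8.85 after anti-DR3, against 8.53 and 8.36 after control antibody (0.33, adjusted p = 0.110), and its second, dimmer probe set gave 0.23. Spcs3, the remaining accessory subunit, had 8.50 and 8.56 after anti-DR3, against 8.27 and 8.15 after control antibody (0.32, adjusted p = 0.0861). In each of the 3 the anti-DR3 arrays lay above both control antibody arrays.

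Ssr2 had 9.33 and 9.42 after anti-DR3, against 8.93 and 8.76 after control antibody. The groups were 0.40 apart at their closest, and the log2 difference was 0.52 ± 0.094 (SE, n = 2 arrays per group; adjusted p = 0.0373, limma). The other subunits of this complex, which sits beside the channel and helps chains to enter, differed less and did not pass. Ssr1 had 8.40 and 8.30 after anti-DR3, against 8.22 and 7.95 after control antibody (0.27, adjusted p = 0.212), and its second, dimmer probe set gave 0.045. Ssr3 differed by 0.12 and Ssr4 by 0.19. The anti-DR3 and control antibody values of Ssr4 overlapped, its control antibody arrays being 0.30 apart, the widest gap between control antibody replicates among the 38 genes. Its difference was 0.037 once control antibody replicate 2 was left out, and 0.34 once replicate 1 of that group was left out.

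Of the channel itself, Sec61a1, the pore subunit, had 9.59 and 9.51 after anti-DR3, against 9.37 and 9.31 after control antibody (0.22, adjusted p = 0.170). Sec61g, a small subunit, had 8.01 and 8.15 after anti-DR3, against 7.69 and 7.74 after control antibody (0.36, adjusted p = 0.0698). A further probe set is annotated with Sec61g and predicted genes together, so near-identical copies may share its signal, and it was not used. Sec61b, the remaining small subunit, was listed as dim, with 4.64 and 5.51 after anti-DR3, against 5.28 and 4.84 on the arrays after control antibody, values that straddle the array medians of 5.33 to 5.39. Ostc had 8.10 and 8.15 after anti-DR3, against 7.90 and 7.72 after control antibody (0.32, adjusted p = 0.107). None of the channel subunits nor Ostc passed, though the groups did not overlap for the 3 that were tested.

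The calls of Sec11c and Ssr2 depended on the arrays used. Without control antibody replicate 2 Sec11c kept its call (adjusted p = 0.0431) and Ssr2 lost it (0.0998). Without anti-DR3 replicate 1, anti-DR3 replicate 2 or control antibody replicate 1, Sec11c had an adjusted p of 0.0606, 0.0996 and 0.0602, and Ssr2 of 0.128, 0.203 and 0.0747. With the replicate number as a block Ssr2 was at 0.0598 and Sec11c at 0.0243. With no filter on dim genes neither passed (adjusted p = 0.0691 for Sec11c and 0.141 for Ssr2), nor did they in the ordinary linear model (0.229 and 0.266) or with every probe set tested on its own (0.0879 and 0.133).

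**Figure D3:**
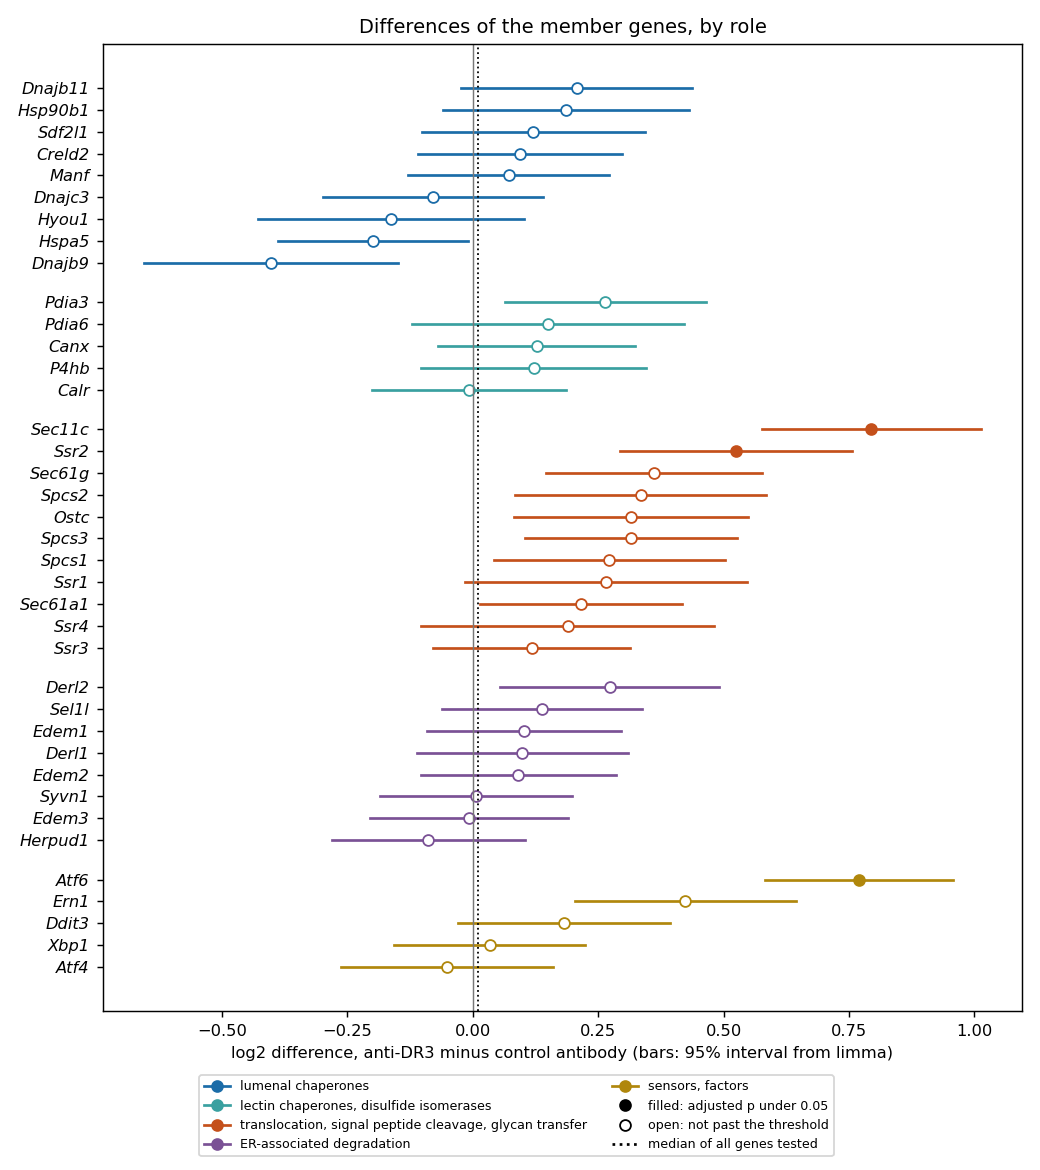
Log2 difference of each gene, anti-DR3 minus control antibody, with the 95% interval from limma, ordered within each role; filled points passed an adjusted p of 0.05 and the dotted line is the median of all genes tested, 0.010. Sec11c, Ssr2 and Atf6 are the filled points, and Dnajb9 at -0.40 is the lowest.

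Among the sensors and factors, Atf6 rose and the other 4 did not pass. Atf6 encodes a membrane protein that is cut in the Golgi under stress and then acts as a transcription factor. It had 8.07 and 8.08 after anti-DR3, against 7.31 and 7.30 after control antibody. Replicates were 0.013 apart after anti-DR3 and 0.012 apart after control antibody, and the groups were 0.76 apart, the widest separation of the 38 genes. The log2 difference was 0.77 ± 0.076 (SE, n = 2 arrays per group; adjusted p = 0.0106, limma), and Atf6 was 67th by p among all genes tested. Without anti-DR3 replicate 1, anti-DR3 replicate 2 or control antibody replicate 1 its adjusted p was 0.0647, 0.0897 and 0.0531, and without control antibody replicate 2 it kept the call (0.0384). It also missed the threshold with no filter on dim genes (adjusted p = 0.0646), in the ordinary linear model (0.112) and with every probe set tested on its own (0.0779). Atf6b, the gene of a related factor, had 7.51 and 7.39 after anti-DR3, against 7.43 and 7.43 after control antibody, a log2 difference of 0.024 with a 95% interval of -0.18 to 0.23.

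Ern1, the gene of the sensor Ire1, had 7.32 and 7.17 after anti-DR3, against 6.85 and 6.79 after control antibody. Both anti-DR3 arrays lay above both control antibody arrays, but the log2 difference of 0.42 ± 0.090 (SE) just missed the threshold (adjusted p = 0.0527, limma). Xbp1, whose RNA is cut by Ire1 and rejoined into the form that gives the active factor, had 8.72 and 8.72 after anti-DR3, against 8.71 and 8.66 after control antibody, a log2 difference of 0.033 with a 95% interval of -0.16 to 0.22. The sign of that difference turned under 2 other normalizations. The probe set gives 1 value for the gene and does not separate the cut from the uncut RNA.

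Perk acts on translation, and Atf4 and Ddit3 lie downstream of it. Eif2ak3, the gene of Perk, had 7.08 and 7.11 after anti-DR3, against 7.18 and 7.25 after control antibody (log2 difference -0.12, adjusted p = 0.389). Atf4 differed by -0.052 with a 95% interval of -0.26 to 0.16, its groups overlapping. Ddit3, which encodes the death-linked factor Chop, had 6.71 and 6.80 after anti-DR3, against 6.52 and 6.62 after control antibody (0.18, adjusted p = 0.247). Ppp1r15a, whose product reverses the translation block, had 9.44 and 9.44 after anti-DR3, against 9.75 and 9.74 after control antibody (-0.31, adjusted p = 0.0739), so both anti-DR3 arrays lay below both control antibody arrays without passing. Ppp1r15a had the lowest difference of the 21 further sensors, proteases and stress factors tested. Of the 18 further targets of Atf4 and the integrated stress response tested, 0 passed, 13 differences were positive and 5 negative. Of the 18, 8 had an unadjusted p under 0.05, 7 of them higher after anti-DR3 and 1 lower. Eif2ak3, Ppp1r15a, Atf6b and Sec11a were named for their roles outside the rule for naming genes, with their values already seen. Other genes read for their roles are not named.

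Among the 9 lumenal chaperones and cochaperones 0 passed, against 4.49% of all genes tested as higher and 1.47% as lower. Of the 9, 2 had an unadjusted p under 0.05, both lower after anti-DR3, against 26.1% of all genes tested in either direction. The median of the 9 was 0.072 on the log2 scale, with 5 differences positive and 4 negative. Dnajb9, the gene of ERdj4, a cochaperone that also restrains Ire1, had 9.91 and 10.02 after anti-DR3, against 10.27 and 10.48 after control antibody. The anti-DR3 arrays were the lower ones by at least 0.24, and the log2 difference was -0.40 ± 0.10 (SE; adjusted p = 0.0769). Hspa5 had 9.19 and 9.15 after anti-DR3, against 9.37 and 9.38 after control antibody (-0.20, 95% interval -0.39 to -0.0098, adjusted p = 0.175). Here too both anti-DR3 arrays lay below both control antibody arrays.

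Hyou1, which exchanges the nucleotide of BiP, had 7.58 and 7.52 after anti-DR3, against 7.58 and 7.84 after control antibody (-0.16), and the groups were separated by only 0.0044. Dnajc3, a cochaperone that also holds Perk in check, differed by -0.079 with overlapping groups. Hsp90b1 had 10.57 and 10.53 after anti-DR3, against 10.26 and 10.47 after control antibody (0.19, adjusted p = 0.301). Dnajb11, a cochaperone of BiP, had 7.63 and 7.81 after anti-DR3, against 7.53 and 7.49 after control antibody (0.21, adjusted p = 0.232). Sdf2l1, which works with Dnajb11, and Manf and Creld2, both induced by ER stress, differed by 0.12, 0.072 and 0.094. These 3 were a little higher on both anti-DR3 arrays, by at most 0.029 at the closest pair. Within this role the differences of BiP and its partners lay on both sides of 0.

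Of the 5 lectin chaperones and disulfide isomerases tested, 0 passed, with 1 under an unadjusted p of 0.05, against 26.1% of all genes tested. Pdia3, the isomerase that works on glycoproteins held by the lectins, had 10.23 and 10.30 after anti-DR3, against 9.97 and 10.04 after control antibody (0.26, adjusted p = 0.113), and its groups were 0.19 apart. Of the lectins, Canx, on the membrane, differed by 0.13 and Calr, in the lumen, by -0.0079, with a 95% interval of -0.20 to 0.19. Pdia6 had 8.71 and 8.46 after anti-DR3, against 8.39 and 8.48 after control antibody. Its anti-DR3 arrays were 0.26 apart, the widest gap between anti-DR3 replicates among the 38 genes, and the groups overlapped. P4hb, the gene of protein disulfide isomerase itself, differed by 0.12. That value was 0.038 with control antibody replicate 2 left out and 0.21 with replicate 1 of that group left out.

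Among the 8 genes of ER-associated degradation 0 passed, and 1 had an unadjusted p under 0.05, against 26.1% of all genes tested. Derl2, a part of the retrotranslocation channel, had 6.30 and 6.16 after anti-DR3, against 5.92 and 5.99 after control antibody (0.27, adjusted p = 0.126), while a second probe set below the array medians gave -0.012. Derl1, its relative, differed by 0.098. Syvn1, the ubiquitin ligase Hrd1, had 7.20 and 7.24 after anti-DR3, against 7.20 and 7.24 after control antibody, so the groups overlapped throughout, and the log2 difference of 0.0059 changed sign under other settings. Sel1l, its partner, had 8.12 and 8.12 after anti-DR3, against 7.93 and 8.03 after control antibody (0.14, adjusted p = 0.344). The mannosidase genes Edem1, Edem2 and Edem3, whose products mark glycoproteins for disposal, differed by 0.10, 0.091 and -0.0075. Herpud1, a stress-induced scaffold of the ligase, had 9.24 and 9.19 after anti-DR3, against 9.32 and 9.28 after control antibody (-0.088, adjusted p = 0.529).

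**Figure D4:**
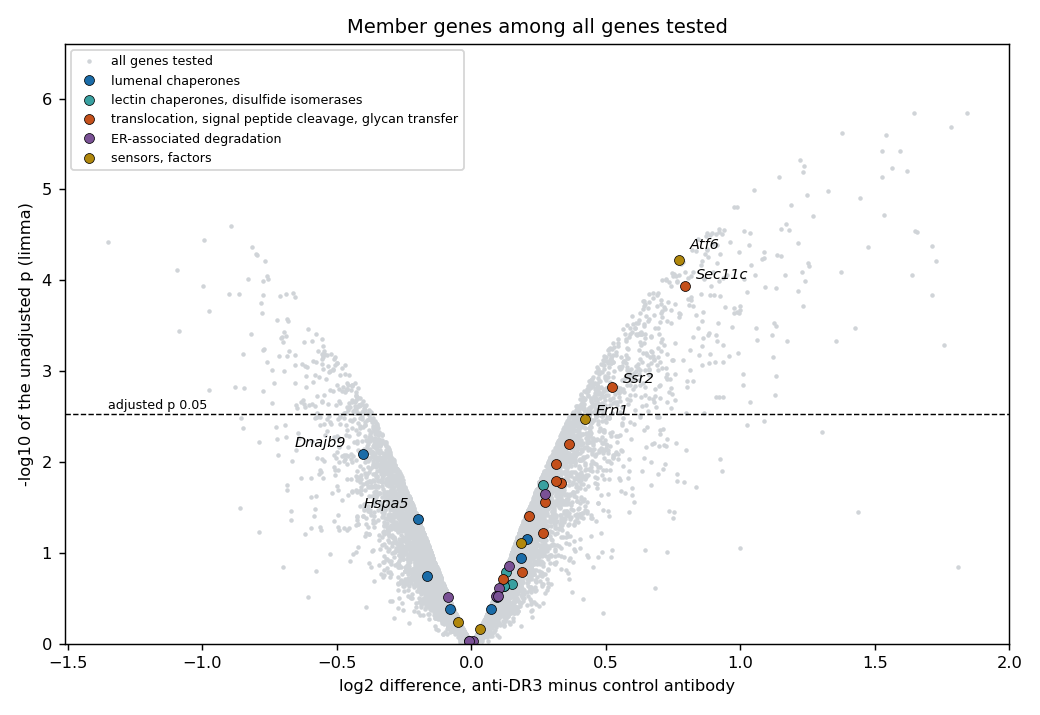
Log2 difference, anti-DR3 minus control antibody, against -log10 of the unadjusted p from limma for all 12114 genes tested (grey) and the 38 genes by role; the dashed line is the adjusted p of 0.05. Atf6, Sec11c and Ssr2 lie above the line, Ern1 just under it, and Dnajb9 and Hspa5 on the lower side of 0.

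Further genes of the pathway were read from lists by function, 143 genes tested in all. Of these 1 passed as higher and 0 as lower, against 4.49% and 1.47% of all genes tested. An unadjusted p under 0.05 was found for 38 of the 143, near the share of 26.1% over all genes tested. Of these 38, 35 were higher after anti-DR3 and 3 lower, against 2007 higher and 1159 lower over all genes tested. The groups did not overlap, with anti-DR3 higher, for 76 of the 143, against 31.6% of all genes tested. With anti-DR3 lower they did not overlap for 15 of the 143, against 24.6%. The median log2 difference of the 143 was 0.11. The gene that passed was Bak1, a pore-forming death protein that also binds Ire1, with 8.03 and 8.09 after anti-DR3, against 7.41 and 7.56 after control antibody (0.58 ± 0.090 SE, adjusted p = 0.0272). Both anti-DR3 arrays lay above both control antibody arrays. Without control antibody replicate 2 it kept its call (adjusted p = 0.0488), and without anti-DR3 replicate 1, anti-DR3 replicate 2 or control antibody replicate 1 it did not (0.113, 0.170 and 0.0951). It also lost its call with no filter on dim genes (adjusted p = 0.116), in the ordinary linear model (0.246) and with every probe set tested on its own (0.115).

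The 24 further genes of signal recognition, translocation and sugar transfer had a median of 0.095, with 0 passing and 5 under an unadjusted p of 0.05, against the median of 0.32 for the entry genes above. The 33 genes of ER to Golgi transport had a median of 0.11 (0 passing, 8 under an unadjusted p of 0.05), the 24 of disulfide, prolyl and glycoprotein folding 0.11 (0 and 10), and the 23 of degradation 0.060 (0 and 2). The 18 targets of Atf4 and the integrated stress response had a median of 0.22 (0 and 8). The 21 further sensors, proteases and stress factors, which held Bak1, had a median of 0.11 (1 and 5). The 26 chaperones of the cytosol and mitochondria had a median of 0.0062, with 0 passing and 6 under an unadjusted p of 0.05. Beside these counts, 26.1% of all genes tested had an unadjusted p under 0.05, 4.49% passed as higher and 1.47% as lower. No list was tested against another, and the ordinary linear model, run as an alternative, passed 0 genes of the whole array.

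**Figure D5:**
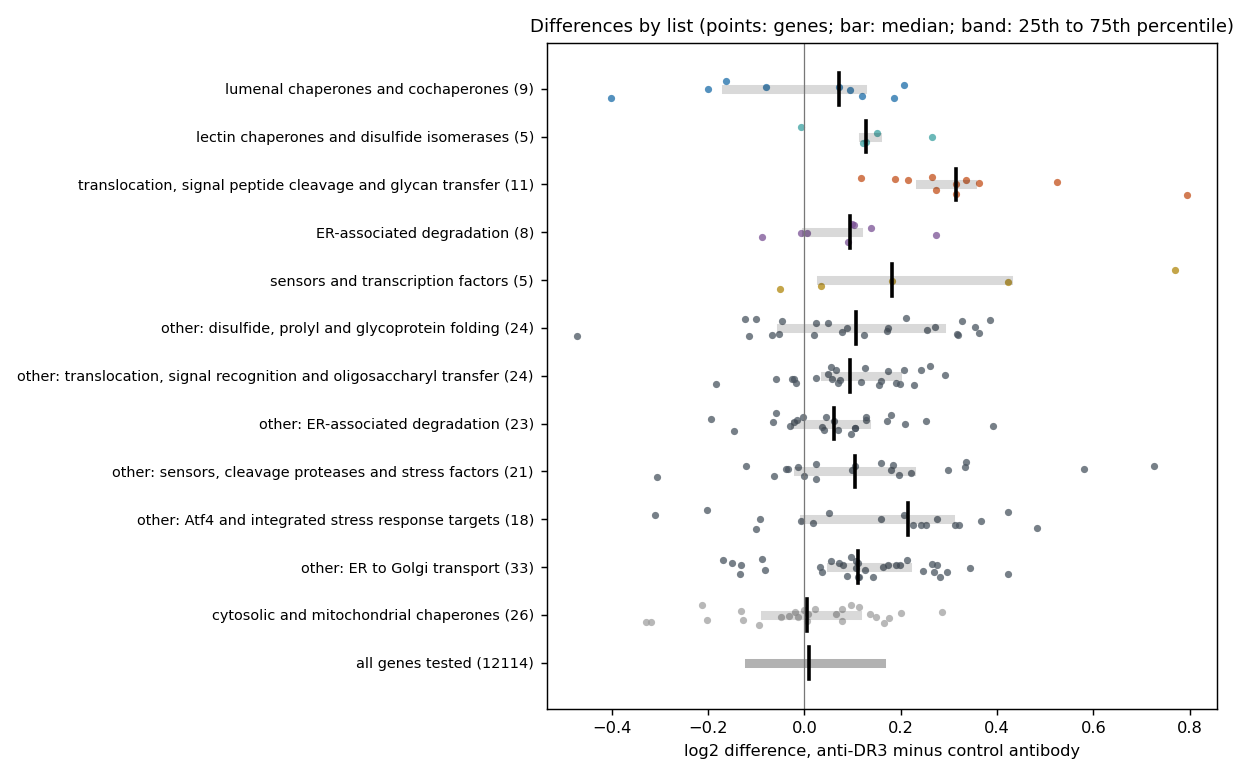
Log2 difference, anti-DR3 minus control antibody, of each gene in the roles described here, in lists of further pathway genes and in cytosolic and mitochondrial chaperones, with the number tested in brackets; bars are medians and bands run from the 25th to the 75th percentile of each list. The entry genes have the highest median, 0.32, and the cytosolic and mitochondrial chaperones lie at 0.0062, beside all genes tested at 0.010.

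Markers of the sorted cells were bright on all arrays, with Foxp3 at 11.93 and 11.90 after anti-DR3, against 11.89 and 11.81 after control antibody. Of the 8 genes tested on the list of Treg and CD4 T cell markers, 1 rose, 1 fell and 6 did not pass. Ikzf2, the gene of Helios, had 10.90 and 10.94 after anti-DR3, against 10.34 and 10.34 after control antibody (log2 difference 0.58 ± 0.077 SE, adjusted p = 0.0193, limma). Il2ra, the gene of CD25, had 10.49 and 10.36 after anti-DR3, against 10.98 and 10.84 after control antibody (-0.49 ± 0.095 SE, adjusted p = 0.0441). The summed intensity of the 8 was 18344 and 18042 after anti-DR3, against 17442 and 17019 after control antibody. Markers of proliferation and of other cells also moved. Of 10 proliferation genes tested 6 rose (Ccna2, Mki67, Ccnb2, Top2a, Kif11 and Mcm6), with Mki67, the gene of Ki-67, at 9.38 and 9.39 after anti-DR3, against 7.50 and 7.71 after control antibody, and the summed intensity of the 11 measured was 3344 and 3321 after anti-DR3, against 2062 and 2069 after control antibody. The summed intensity of 9 plasma cell markers, a cell type rich in ER, was 1088 and 1162 after anti-DR3, against 885 and 904 after control antibody. Of the 6 plasma cell markers tested 1 rose, Irf4, which T cells also express, while the defining genes Sdc1 and Jchain lay below the median of every array. The log2 differences of the 6 reached 0.70, above the 0.46 of Irf4, with 4 positive and 2 negative. Of the 6, 2 had an unadjusted p under 0.05 in limma, both higher after anti-DR3. Jchain had 4.16 and 4.37 after anti-DR3, against 4.02 and 3.96 after control antibody. Sdc1 had 4.97 and 5.15 after anti-DR3, against 5.17 and 5.18 after control antibody. The 9 B cell markers measured summed to 4248 and 4497 after anti-DR3, against 2801 and 3029 after control antibody. Most of each sum came from the marker Ighm (log2 scale: anti-DR3 arrays 11.96 and 12.04, control antibody arrays 11.31 and 11.44). The higher sum therefore rests mainly on Ighm and does not show a rise of the other B cell markers. Of the 2 tested Ighm rose, while Ms4a1 lay below the median of every array. Csf1r, 1 of 5 myeloid markers tested, and Cd8b1, 1 of 3 markers of CD8 T and natural killer cells tested, also rose. The 11 measured myeloid markers summed to 511 and 546 after anti-DR3, against 462 and 487 after control antibody, and the 7 of CD8 T and natural killer cells to 593 and 565 after anti-DR3, against 547 and 476 after control antibody. The part of proliferation or of other cells in the differences above was not tested. In bulk RNA a change in the number of cells of a type and a change in RNA per cell cannot be told apart.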

How the data were processed

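RNA of sorted Treg was labelled with biotin using a whole-transcript kit for Affymetrix arrays, per the labels' protocols. The deposited table holds linear intensities for each probe set, made with RMA per the submitters' processing notes; RMA normalizes arrays to a shared distribution. Neither software nor genome build is given in the sources used here. Array medians were 40.2 and 40.4 after anti-DR3, against 41.6 and 42.0 after control antibody, so they differed by group. For arrays their number limits the precision.

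Values were taken to log2. Of 41345 probe sets 23521 had 1 gene symbol, 1814 several and 16010 none. Each gene was read at its brightest probe set, and genes above the array median of all probe sets on at least 2 of 4 arrays were tested with limma 3.58.1 in R 4.3.3 (lmFit, eBayes, two-sided, Benjamini-Hochberg over 12114 genes, threshold 0.05). An exact permutation test of 2 against 2 arrays cannot go below p = 0.333. The code was tested on simulated data. The genes and lists were chosen with earlier results of these data known. All 40 listed genes were named, of each list of further pathway genes up to 4 past the threshold, and of marker lists those past it plus defining genes, 1 of which is not reported here. Promoters came from RefSeq (GRCm38.p6) and were matched by symbol. The alternatives varied the replicate block, each array, the dim filter, normalization, the variance model, the probe set and the threshold.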

Additional observations from a re-analysis of the deposited data

How the results depend on the processing

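With each array left out in turn limma called 0 to 312 genes and 0 to 2 of the 38 as higher; 1967 genes were under an unadjusted p of 0.05 in the fit with 0. The counts of genes and of the 38 as higher were 14 and 0 with no filter on dim genes (3573 under an unadjusted p of 0.05), 0 and 0 in the ordinary linear model (2087), and 0 and 0 with every probe set tested on its own (4121). They were 1177 and 8 with the stricter filter, 1444 and 9 with a trended robust prior, and 1689 and 6 at an adjusted p under 0.10, each with 1 of the 38 lower, Dnajb9. Centring on the median turned the split over all genes into 348 higher and 243 lower, against 544 and 178. Stricter and looser filters test fewer and more genes, and the causes of the other changes were not tested. The replicate block gave 563 genes and 2 of the 38, with Ssr2 at an adjusted p of 0.0598; replicate differences correlated at 0.051 between groups, and the labels do not say what a shared number means. The median over the 38 ran from 0.072 (centred) to 0.15. When centred, the median over all genes tested was -0.050, against 0.010 in the main fit. Over single genes and alternatives, 480 values kept both sign and call, 20 lost a call, 17 gained one and 11 changed sign. With each array left out in turn Dnajc3 ran from -0.16 to 0.00095, Calr from -0.043 to 0.027, Syvn1 from -0.015 to 0.027, Edem3 from -0.046 to 0.031 and Atf4 from -0.12 to 0.014. Centred, Syvn1 was at -0.055 and Xbp1 at -0.027, and after quantile normalization Syvn1 was at -0.025 and Xbp1 at -0.0071.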
